A study of Mus musculus with 6 samples.

Results

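The SR proteins, the hnRNP proteins and a set of sequence-specific splicing regulators of the nervous system were followed across the hippocampus of Prrc2a-deleted and Fto transgenic mice. Members were the protein-coding genes whose symbols start with Srsf or Hnrnp, together with Tra2a, Tra2b, Ptbp1 to Ptbp3, Rbfox1 to Rbfox3, Qk, Nova1, Nova2, Celf1, Celf2, Mbnl1 and Mbnl2, provided they had at least 10 counts over all libraries. This gave 46 genes of the 37315 listed in the files, 26277 of which had a count in at least 1 library. They comprised 13 SR and Tra2 genes, 23 hnRNP and Ptbp genes, and 10 genes of the Rbfox, Nova, Celf, Mbnl and Qk group. A further 2 genes with Hnrnp symbols were pseudogenes and were left out, and no protein-coding candidate fell under the count minimum.

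SR proteins carry RNA recognition motifs and a domain rich in arginine and serine, bind exonic enhancers and mostly favor inclusion of the exon, whereas hnRNP proteins coat nascent transcripts and often favor skipping. Rbfox, Nova, Celf, Mbnl and Qk proteins recognize short RNA motifs and set the exon choices of neurons, glia and muscle. Many genes of these families tune their own transcript level through exons that lead to decay, which counts per gene cannot resolve.

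The 6 libraries came from the hippocampus of C57BL/6J mice aged 4 weeks, 1 from each of 6 groups, and formed 3 pairs. The control of the Nestin-Cre pair was homozygous for floxed Prrc2a (Prrc2a f/f), and its counterpart had the same alleles plus Nestin-Cre, which acts in neural progenitors and thereby in their neuronal and glial progeny. The Olig2-Cre pair had a separate Prrc2a f/f control, and its counterpart had Prrc2a f/f with Olig2-Cre, which acts in the oligodendroglial lineage. The study states that this Cre is expressed from the endogenous Olig2 promoter and lowers the Olig2 dose, and no Cre-only library was analysed here. The Fto pair consisted of wild-type (WT) mice and transgenic mice (Fto Tg) that express Fto under the ubiquitin C promoter. Both controls of the Prrc2a experiments thus carry the floxed allele by their genotype labels, although their titles call them WT, and the labels do not say whether animals were pooled. N6-methyladenosine (m6A) is an RNA mark that Prrc2a reads and Fto erases.

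Library totals ranged from 18616540 to 35482589 counts. The Nestin-Cre library stood apart from the other 5, since mitochondrial genes took 26.2% of its counts against 7.97% to 8.86% elsewhere. In the controls and altered libraries of the 3 experiments, Prrc2a was at 434 and 184 CPM (counts per 1000000 counts of the library) in the Nestin-Cre pair and at 389 and 346 CPM in the Olig2-Cre pair, and Fto was at 158 and 354 CPM in the Fto pair. Prrc2a had 351 CPM in WT and 334 CPM in Fto Tg, on either side of the Olig2-Cre value. These values are on library totals, on which the median of all genes tested was also lower in the Nestin-Cre library than in its control. Neuronal markers summed to 9936 to 12686 CPM and astrocyte markers to 5098 to 5884 CPM, and no marker of any brain cell type was at 0 in any library. Choroid plexus markers varied most, from 268 CPM in the Nestin-Cre library and 693 CPM in Fto Tg to 1646 to 2869.7 CPM in the controls and 3415 CPM in the Olig2-Cre library. With 1 library per group, a comparison within a pair is between libraries and not between genotypes.

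Together the 46 members took 8704 and 8752 CPM in the f/f controls of the Nestin-Cre and Olig2-Cre pairs and 9127 CPM in WT. The Olig2-Cre and Fto Tg libraries were close to these at 8561 and 8937 CPM, while the Nestin-Cre library reached 11778 CPM. Per kilobase of exon, which allows levels of different genes to be compared, Rbfox1 was the highest member with a control mean of 94.1 CPM per kilobase. It was followed by Hnrnpa2b1 at 93.2, Srsf5 at 86.5 and Hnrnpa1 at 85.6 CPM per kilobase. At the other end were Hnrnpr at 4.29, Ptbp1 at 4.41 and Srsf4 at 4.47 CPM per kilobase. The Rbfox1, Hnrnpa2b1, Srsf5 and Hnrnpa1 values differed by less than the spread of the controls, as did those of Hnrnpr, Ptbp1 and Srsf4. The exon length used for Hnrnpr is 22199 bases because its annotated transcripts include a very long one, which lowers its value per kilobase.

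**Figure D1:**
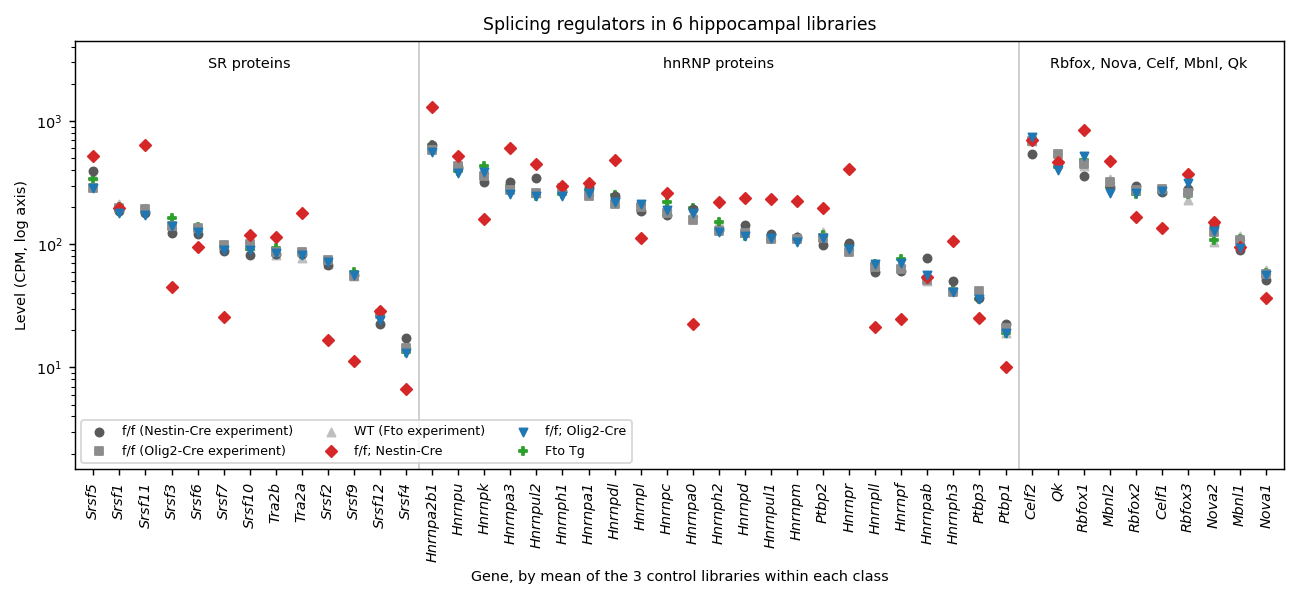
Level of each of the 46 splicing regulators in CPM (log axis) in the 6 libraries, 1 point per library, ordered by the mean of the 3 controls within each class. Points of 5 libraries lie close together for most genes, while the Nestin-Cre library (red diamonds) lies apart, for example at 639.7 CPM for Srsf11 and 22.5 CPM for Hnrnpa0.

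To find which splicing regulators differed after deletion with Nestin-Cre, both libraries of this pair were compared by a read test (MARS, FDR below 0.001 and a fold of at least 1.2). Of the 46 members, 23 were called higher and 17 lower, and 6 were not called. Among all 18170 genes tested, 11.5% were called higher and 53.4% lower. The median log2 ratio of the members was 0.23, against -0.72 for all genes tested and -0.64 for the 9004 genes with as many counts as the lowest member (847 over the pair). The spread among members was wide, from -3.11 for Hnrnpa0 to 2.01 for Hnrnpr. Relative to the median gene, 30 members were called higher and 11 lower, beside 29.6% and 29.1% of all genes. Of the members, 26 lay above the highest and 16 below the lowest of the 3 controls, whereas 83.3% of all genes with 10 counts lay outside that range in either direction.

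**Figure D2:**
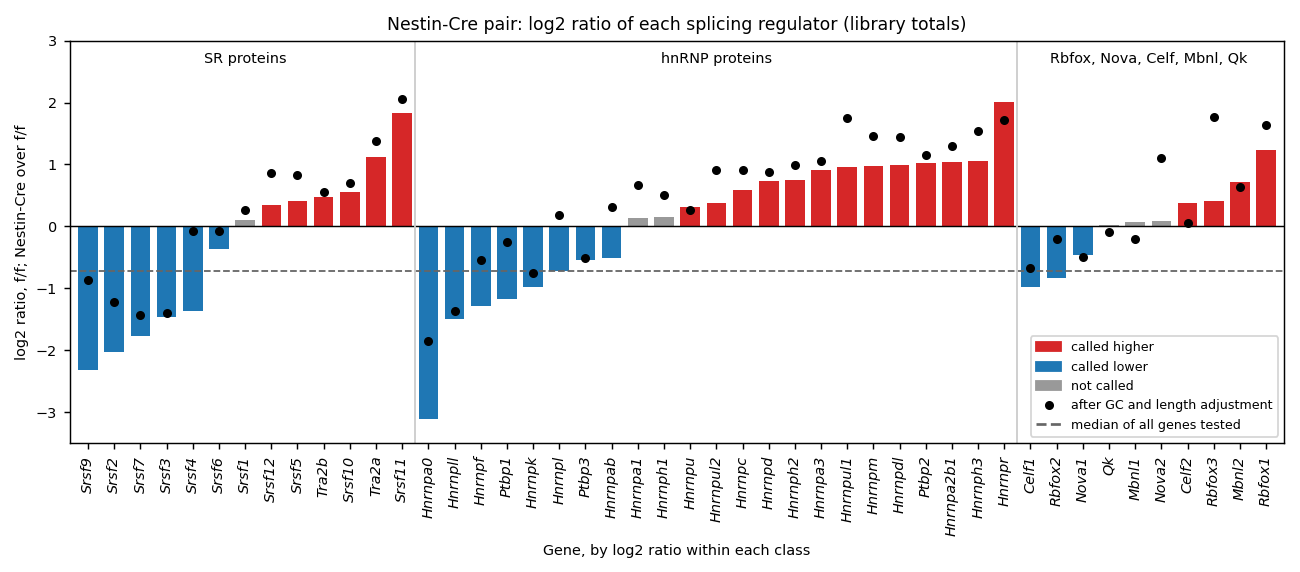
Log2 ratio of the Nestin-Cre library over its f/f control for each member, scaled by library totals (bars), with the ratio after adjustment for GC content and length (points) and the median of all genes tested (dashed line, -0.72). Each class holds members far above and far below 0, from Srsf9 at -2.32 to Srsf11 at 1.82 among SR genes and from Hnrnpa0 at -3.11 to Hnrnpr at 2.01 among hnRNP genes.

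The SR genes divided, with 6 of 13 called higher, 6 called lower and Srsf1 left uncalled (log2 ratio 0.11). The fallers included Srsf9, Srsf2, Srsf7, Srsf3 and Srsf4, all genes for SR proteins that activate exons. Srsf9 (ENSMUSG00000029538) had 56.4 CPM in f/f and 11.3 CPM (95% Wilson interval 10.2 to 12.5, counting error only) with Nestin-Cre, a log2 ratio of -2.32, and 55.2, 55.9, 55.3 and 59.3 CPM in the other f/f, Olig2-Cre, WT and Fto Tg libraries. Its 3 controls were among the tightest of all members at 55.6 ± 0.676 CPM (SD, n = 3). Srsf2, whose protein also acts in transcript elongation, fell from 68.2 to 16.7 CPM (log2 ratio -2.03) and had 74.1, 71.5, 68.8 and 71.4 CPM in the other f/f, Olig2-Cre, WT and Fto Tg libraries. Srsf7, which also takes part in mRNA export, fell from 87.8 to 25.7 CPM (log2 ratio -1.77) beside 98.0, 89.3, 98.2 and 96.7 CPM in the same 4 libraries. For each of these 3 genes the Nestin-Cre library alone was low and the other 5 overlapped or lay close together. The 3 genes were named for the size of their falls, so this separation follows in part from the choice. Srsf3 followed at -1.46. Srsf4 was at -1.37 with library totals and at -0.66 relative to the median gene. It lost its call at -0.07 after the GC and length adjustment, which also centres the ratios on the typical gene. Srsf6 was at -0.36 with library totals but was called higher when libraries were scaled to typical genes by TMM (0.32) or DESeq2 size factors (0.35), and it lost its call with the adjustment (-0.07).

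Srsf11, a divergent SR protein, moved the other way. Srsf11 (ENSMUSG00000055436) had 181 CPM in f/f and 639.7 CPM (631 to 648) with Nestin-Cre, a log2 ratio of 1.82, and 195, 174, 198 and 182 CPM in the other f/f, Olig2-Cre, WT and Fto Tg libraries. Tra2a, a splicing activator related to the SR proteins, rose from 83.2 to 181 CPM (log2 ratio 1.12) and lay at 85.9, 81.3, 77.4 and 84.3 CPM elsewhere. In both genes the Nestin-Cre value lay far above the 5 other libraries, which spanned a narrow range. Both were named for the size of their rises. Tra2b, the paralog of Tra2a, rose less, by 0.48, as did Srsf10 by 0.55 and Srsf5 by 0.41. Srsf12, an SR protein with a restricted tissue pattern, had 22.5 and 28.7 CPM in the pair (log2 ratio 0.35) and 27.0, 24.4, 28.4 and 27.1 CPM elsewhere, so that its Nestin-Cre value was barely above WT.

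The coding starts of Srsf9, Srsf2 and Srsf11 are shown because these SR genes moved furthest in opposite directions. Each sequence holds the first 150 coding bases of the GENCODE M21 transcript, read 5′ to 3′ on the gene's strand, with the letters GGAC in capitals. GGAC is a core of the sequence context in which m6A is placed, and it was searched on the transcript strand only. Srsf9 lies at chr5:115327309-115327458 (GRCm38, plus strand, a single exon), Srsf2 at chr11:116852780-116852929 (minus strand, a single exon), and the Srsf11 bases are joined from 2 exons between chr3:158031589 and 158036605 (minus strand).
Srsf9: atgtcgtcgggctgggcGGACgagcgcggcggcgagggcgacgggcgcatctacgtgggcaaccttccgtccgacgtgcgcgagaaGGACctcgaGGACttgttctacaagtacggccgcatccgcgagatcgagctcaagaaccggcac
Srsf2: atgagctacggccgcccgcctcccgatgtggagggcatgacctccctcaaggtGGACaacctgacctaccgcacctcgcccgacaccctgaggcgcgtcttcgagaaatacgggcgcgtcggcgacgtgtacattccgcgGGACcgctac
Srsf11: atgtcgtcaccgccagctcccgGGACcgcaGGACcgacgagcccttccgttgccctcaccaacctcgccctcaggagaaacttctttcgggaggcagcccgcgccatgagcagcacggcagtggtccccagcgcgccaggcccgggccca
GC content over these bases was 66.7% in Srsf9, 66% in Srsf2 and 70% in Srsf11, against a median of 54.7% over the same window in 21595 genes. GGAC occurred 3 times in Srsf9 and 2 times each in Srsf2 and Srsf11. Over all members 28 of 46 held GGAC in this window, beside 54.7% of all genes. Over whole transcripts, the median was 2.61 GGAC per kilobase in members called higher with Nestin-Cre and 3.03 in those called lower. A relation of GGAC to the ratios was not tested.

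Among the 23 hnRNP and Ptbp genes, 13 were called higher and 8 lower with Nestin-Cre, and Hnrnpa1 and Hnrnph1 were not called at 0.13 and 0.15. Hnrnpa0 (ENSMUSG00000007836), an AU-rich element binding hnRNP encoded by a single exon, had 194 CPM in f/f and 22.5 CPM (20.9 to 24.1) with Nestin-Cre. Its log2 ratio of -3.11, a fall of 8.63-fold, was the lowest of all members. The other f/f, Olig2-Cre, WT and Fto Tg libraries had 156, 181, 182 and 197 CPM, all far above the Nestin-Cre value. Hnrnpr (ENSMUSG00000066037), which binds neuronal and other mRNAs and is related to Syncrip, had 102 CPM in f/f and 411 CPM (405 to 418) with Nestin-Cre. Its log2 ratio was 2.01, a rise of 4.04-fold, beside 87.4, 92.2, 96.5 and 99.2 CPM in the other 4 libraries. Neither gene overlapped between the Nestin-Cre library and any other. Both were picked as the largest fall and the largest rise, so this separation follows in part from the choice. It was also common, since 83.3% of all genes compared lay outside the range of the controls in the Nestin-Cre library.

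The coding starts of both genes are given for the same reason, as the largest fall and the largest rise of the family. Hnrnpa0 lies at chr13:58128164-58128313 (GRCm38, minus strand) and Hnrnpr at chr4:136314099-136314248 (plus strand), each within a single exon, with GGAC in capitals.
Hnrnpa0: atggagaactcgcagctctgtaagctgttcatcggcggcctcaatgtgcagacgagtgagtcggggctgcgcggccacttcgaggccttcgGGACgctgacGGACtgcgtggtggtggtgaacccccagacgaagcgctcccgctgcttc
Hnrnpr: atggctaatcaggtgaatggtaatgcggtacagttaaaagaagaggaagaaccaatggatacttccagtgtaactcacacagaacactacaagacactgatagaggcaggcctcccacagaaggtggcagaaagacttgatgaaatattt
The Hnrnpa0 bases hold GGAC 2 times and have 64% GC, and its whole coding sequence has 71.9% GC. The Hnrnpr bases hold no GGAC and have 42.7% GC, with 47.9% GC over its coding sequence.

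The hnRNP genes that rose by about the same amount formed a long list. Hnrnpa2b1, a reader of methylated RNA sites in some cell types, Hnrnph3, Hnrnpdl, Hnrnpm and Hnrnpul1 had log2 ratios of 1.04, 1.06, 0.99, 0.98 and 0.96. They were followed by Hnrnpa3 at 0.91, Hnrnph2 at 0.75, Hnrnpd at 0.74 and Hnrnpc, a binder of uridine tracts, at 0.59. Hnrnpul2 at 0.38 and Hnrnpu, a nuclear scaffold protein, at 0.31 were called with smaller ratios. Falls were seen for Hnrnpll at -1.49, the G-tract binder Hnrnpf at -1.29, the C-tract binder Hnrnpk at -0.98 and Hnrnpl at -0.72. Hnrnpl was thus at the median of all genes. Close relatives differed in direction, since Hnrnpf fell while its relatives Hnrnph2 and Hnrnph3 rose. Hnrnpab had 77.2 CPM in f/f and 53.9 CPM with Nestin-Cre (log2 ratio -0.52), but 50.9, 56.8, 50.1 and 53.6 CPM in the other f/f, Olig2-Cre, WT and Fto Tg libraries. There the f/f control was the library apart, and against the other f/f library the ratio was 0.08 and not called.

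Ptbp1 and Ptbp2 are paralogs, of which Ptbp1 is high in progenitors and glia and Ptbp2 takes over in differentiating neurons. Ptbp1 fell from 22.7 to 10.04 CPM with Nestin-Cre (log2 ratio -1.17), beside 21.0, 19.0, 18.9 and 18.9 CPM in the other f/f, Olig2-Cre, WT and Fto Tg libraries. Ptbp2 rose from 97.9 to 199 CPM (log2 ratio 1.02), beside 112, 112, 126 and 118 CPM in those libraries. Per kilobase, the ratio of Ptbp2 to Ptbp1 was 2.23 in f/f, 10.2 with Nestin-Cre and between 2.76 and 3.45 in the 4 remaining libraries. The Ptbp1 ratio was -0.49 and still called with TMM, and -0.25 and not called after the GC and length adjustment. GC content was 53.7% in Ptbp1 and 43.1% in Ptbp2. Ptbp3 was called lower at -0.55, although it lay 0.17 above the median gene.

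In the Rbfox, Nova, Celf, Mbnl and Qk group, 4 of 10 were called higher and 3 lower with Nestin-Cre. The group's median was 0.08 with library totals, above the median of all genes tested, and -0.01 after the GC and length adjustment. With TMM, Celf1 (-0.30) and Rbfox2 (-0.15) were below 0 and the rest of the group above. Most of the group thus lay above 0 with library totals and with TMM, while the adjustment brought its median to -0.01. Rbfox1, a neuronal regulator of alternative exons, rose from 358 to 847 CPM (log2 ratio 1.24) and was at 451, 523, 432 and 482 CPM in the other f/f, Olig2-Cre, WT and Fto Tg libraries. Rbfox2, its broadly expressed paralog, fell from 297 to 167 CPM (log2 ratio -0.83) beside 274, 259, 288 and 256 CPM. This fall was called with library totals, but not with TMM (-0.15), DESeq2 size factors (-0.12) or the GC and length adjustment (-0.21). Rbfox3, the neuronal nuclear antigen NeuN, had 281 and 374 CPM in the pair (log2 ratio 0.41) and 262, 317, 230.3 and 257 CPM elsewhere. The Rbfox1 to Rbfox2 ratio per kilobase was 9.41 with Nestin-Cre, where it had been 2.23 to 3.73 in the other 5 libraries.

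Mbnl2, which drives late developmental exon switches in brain, rose from 291 to 479 CPM with Nestin-Cre (log2 ratio 0.72). It had 319, 259.7, 339.8 and 291 CPM in the other f/f, Olig2-Cre, WT and Fto Tg libraries, so that the Nestin-Cre library was the highest and the Olig2-Cre library the lowest. Celf2 had 544 and 704 CPM (log2 ratio 0.37), but 684, 740.0, 693 and 703 CPM elsewhere. The f/f control was again the low library, and the ratio was 0.04 and not called with the other f/f library. Its paralog Celf1 fell by 0.99. Nova1 and Nova2 encode neuronal regulators that bind YCAY clusters. Nova1 had 51.1 and 37.0 CPM (log2 ratio -0.47) beside 57.5, 56.0, 61.6 and 58.9 CPM. Nova2 had 143 and 151 CPM (log2 ratio 0.08, not called) beside 125, 129, 104 and 109 CPM. It was called higher with TMM (0.77), DESeq2 size factors (0.80), totals without mitochondrial genes (0.40), the adjustment (1.098) and the other f/f library (0.27). Qk, a regulator of splicing in myelinating glia, had 461 and 469.6 CPM, with a log2 ratio of 0.03 that was not called. The Qk ratio was called higher with TMM (0.71), DESeq2 size factors (0.74) and totals without mitochondrial genes (0.35), and was -0.09 and -0.20, neither called, with the adjustment and the other f/f library. Neuronal markers summed to 12686 CPM in the Nestin-Cre library and 10575 to 11049 CPM in the controls, with 6 of 12 called higher and 4 lower. Oligodendrocyte markers summed to 7194 CPM against 9338 to 10834 CPM, with 12 of 15 called lower. Beside these counts, 11.5% of all genes were called higher and 53.4% lower. These sums are on library totals, on which the median gene of this pair was also lower than in its control. The part of neurons and oligodendrocytes in the values of the Rbfox, Nova, Celf, Mbnl and Qk group was not tested.

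**Figure D3:**
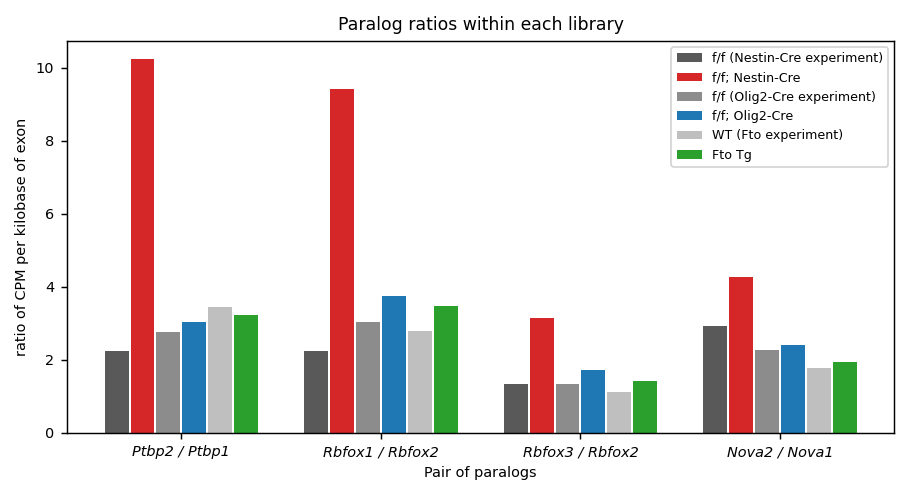
Ratio of CPM per kilobase of exon between paralogs within each of the 6 libraries (bars, 1 per library, axis from 0). Ptbp2 over Ptbp1 reached 10.2 and Rbfox1 over Rbfox2 reached 9.41 in the Nestin-Cre library, above the other 5 libraries in both cases, while Nova2 over Nova1 was 4.27 there and 1.77 to 2.91 elsewhere.

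Composition moved with the ratios of this pair. Over 13630 genes with at least 100 counts, the log2 ratio had a Spearman rho of -0.44 with transcript GC content and of 0.28 with exon length. The 46 members gave -0.24 and 0.27, as a description across genes that share both libraries. Called-higher members had a median GC content of 43.9% and a median exon length of 7003 bases, and called-lower members 49.0% and 4810 bases. The median log2 ratio was -0.21 for genes of 40 to 44% GC and -1.39 for genes of 56 to 60% GC. Srsf7 with 41.6% GC lay far below, and Rbfox3 with 58.6% and Nova2 with 56.3% far above, genes of like GC content. After adjustment for GC and length, 27 members were called higher and 11 lower, beside 28.1% and 26.9% of all genes. Srsf9 was then at -0.86, Srsf2 at -1.22, Srsf7 at -1.43, Hnrnpa0 at -1.85, Srsf11 at 2.06 and Hnrnpr at 1.72. The adjustment also centred the ratios on the typical gene, so these values differ from library totals by more than GC content and length. With centring on the median gene alone, Srsf9 was at -1.61, Srsf2 at -1.32 and Srsf7 at -1.06. Hnrnpa0 was then at -2.39, Srsf11 at 2.54 and Hnrnpr at 2.73.

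**Figure D4:**
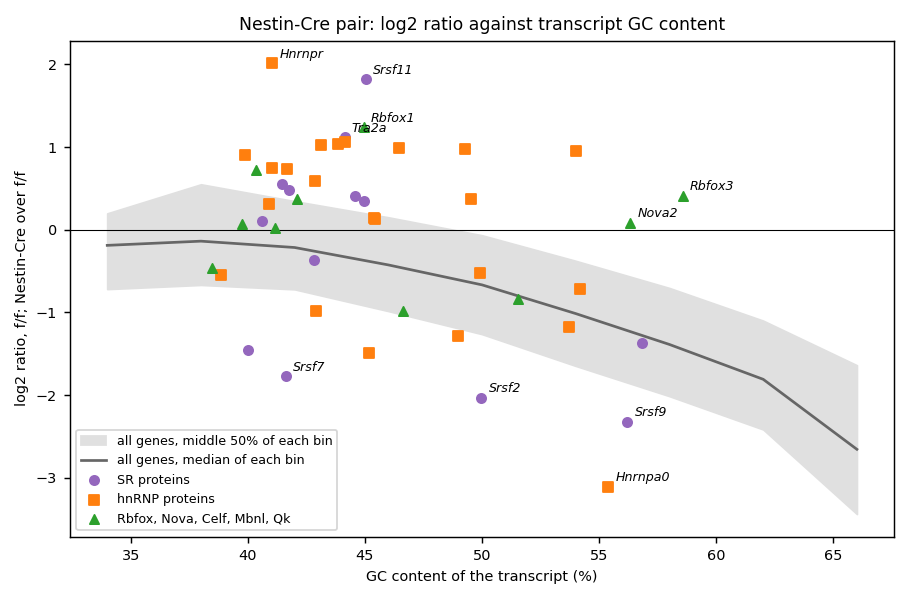
Log2 ratio of the Nestin-Cre pair against transcript GC content (%) for the 46 members (points, by class), with the median and the middle 50% of all genes with at least 100 counts in bins of 4 percentage points. The median of all genes falls from -0.14 at 36 to 40% GC to -2.66 at 64 to 68% GC, and members lie both far above and far below it.

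Across library totals, TMM, DESeq2 size factors, totals without mitochondrial genes, the GC and length adjustment and the other f/f control, 21 members were called higher and 9 lower each time, beside 9.42% and 21.3% of the 17355 genes tested under all of them. The 9 were Hnrnpa0, Srsf9, Srsf2, Srsf7, Srsf3, Hnrnpll, Hnrnpf, Hnrnpk and Celf1. A test with the variation of the 3 controls (edgeR exact test, FDR below 0.05, biological coefficient of variation 0.133) called 14 members higher and 13 lower, beside 55.3% of all genes in either direction. Of the 21 and 9 members, it called 14 and 9. This test was scaled by library totals, on which the median gene lies below 0. Rises are smaller and falls larger on that scale, so these counts do not show which direction is firmer. Srsf6, Ptbp3, Hnrnpab and Nova1, called lower with library totals, lay above the median gene, and Srsf6 was called higher relative to it (0.35).

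To ask whether the oligodendroglial deletion touched the same genes, the Olig2-Cre pair was tested in the same way. Rbfox3 was called higher, Qk and Mbnl2 were called lower, and 43 members were not called. Of all 17742 genes tested, 4.95% were called higher and 6.91% lower, so the 3 calls among 46 members were below the share over all genes, a difference that was not tested. The median log2 ratio of the members was -0.04, beside -0.0031 for all genes, and the range ran from -0.42 for Qk to 0.27 for Rbfox3. The SR genes spanned only -0.16 to 0.02, with 12 of 13 below 0 and none called, beside 50.6% of all genes below 0. With the other f/f control 6 of 13 were below 0, and 8 of 13 after the adjustment. Against the f/f control of the other pair, 7 members were called lower and 2 higher, beside 10.9% and 8.98% of all genes.

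Qk (ENSMUSG00000062078) stood at 540.0 CPM in f/f, with a counting interval of 532 to 549, and at 403 CPM in the Olig2-Cre library, with an interval of 394 to 412. The log2 ratio was -0.42. The other f/f, WT and Fto Tg libraries had 461, 512 and 425 CPM, and the Olig2-Cre library was the lowest of all 6. With the other f/f library as control the ratio was -0.19 and was not called, and after the GC and length adjustment it was -0.15. Of 15 oligodendrocyte markers, 10 were called lower and 1 higher in this pair, and their sum was 7476 CPM against 9338 to 10834 CPM in the controls. Precursor markers summed to 169 CPM against 207 to 241 CPM. The part of these cells in the Qk value was not tested, and in bulk tissue fewer cells of a type and less RNA per cell cannot be told apart. Mbnl2 fell from 319 to 259.7 CPM (log2 ratio -0.30), and was at -0.16 with the other f/f library and at -0.04 after the adjustment, neither called. Rbfox3 rose from 262 to 317 CPM (log2 ratio 0.27), a value just past the fold limit of 1.2 that was not called with TMM (0.26) or with the other f/f library (0.18).

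The first coding bases of Qk (joined from 2 exons between chr17:10282974 and 10318873, GRCm38, minus strand) and Mbnl2 (chr14:120325239-120325388, plus strand, a single exon) are shown as the 2 members called lower with Olig2-Cre, again with GGAC in capitals.
Qk: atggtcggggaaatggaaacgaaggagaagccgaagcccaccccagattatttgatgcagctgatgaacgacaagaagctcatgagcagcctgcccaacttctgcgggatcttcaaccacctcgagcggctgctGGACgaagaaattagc
Mbnl2: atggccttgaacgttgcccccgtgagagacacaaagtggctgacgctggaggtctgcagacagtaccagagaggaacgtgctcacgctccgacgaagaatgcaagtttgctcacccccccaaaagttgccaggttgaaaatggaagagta
GGAC occurred 1 time in Qk and not in Mbnl2. The GC content of these bases was 53.3% and 54%, near the median of all genes.

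Against the 3 controls, 4 members of the Olig2-Cre library lay above the highest and 16 below the lowest, and 26 lay within the range, whereas 57.9% of all genes lay outside. Those above were Rbfox1, Rbfox3, Celf2 and Hnrnpl. Rbfox1 had the ratio 0.21 to its own control, below the fold limit. The exact test with control variation called none of the members and 0.327% of all genes.

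The Fto pair asked what a raised demethylase does to these transcripts. Qk alone was called, and it was lower, from 512 CPM in WT to 425 CPM in Fto Tg (log2 ratio -0.27). Of all 18051 genes, 6.97% were called higher and 8.51% lower. The Qk ratio was -0.25 with TMM and -0.24 with DESeq2 size factors, neither called, and 0.04 after the GC and length adjustment. Oligodendrocyte markers summed to 12511 CPM in Fto Tg, above all 3 controls, with 5 of 15 called higher and 1 lower, while Qk was below them. Precursor markers summed to 201 CPM against 207 to 241 CPM in the controls, with 1 of 6 called lower. The member median was -0.02 beside -0.01 for all genes, and the ratios ran from -0.27 to 0.21 for Srsf3. Srsf3 had 142 CPM in WT and 165 CPM in Fto Tg, the highest of the 6 libraries, and Tra2b had 82.4 and 94.1 CPM (log2 ratio 0.19). Neither was called. Of the members, 13 lay above and 12 below the range of the controls in Fto Tg, with 56.5% of all genes outside, and the exact test called none of the members and 0.571% of all genes.

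After the GC and length adjustment, the Olig2-Cre pair had 3 members called higher (Celf2 at 0.47, Hnrnpr at 0.42 and Hnrnpll at 0.27) and none lower, beside 3.02% and 3.59% of all genes. The Fto pair had 6 called higher, among them Srsf3 at 0.44, Hnrnpr at 0.43 and Celf2 at 0.42, and Srsf4 lower at -0.39, beside 4.25% and 4.38% of all genes. Between these pairs, which share no library, the member ratios had a Spearman rho of 0.73 over 46 genes, and 36 had the same sign. All 12222 genes with at least 50 counts in every library gave a rho of 0.60, and 9052 of them had the same sign. Ratios of both pairs also ran against exon length, with rho -0.45 and -0.49 over genes with at least 100 counts. With the adjustment, the rho between pairs was 0.73 for members and 0.42 for all genes. The same sign was then seen in 33 of 46 members and 8053 of 12139 genes. The Nestin-Cre ratios of the members gave a rho of -0.01 with the Olig2-Cre pair and -0.12 with the Fto pair. Over the 12222 genes these were -0.31 and -0.40. After the adjustment the member values were 0.14 and 0.12, beside -0.11 and -0.20 for all genes.

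**Figure D5:**
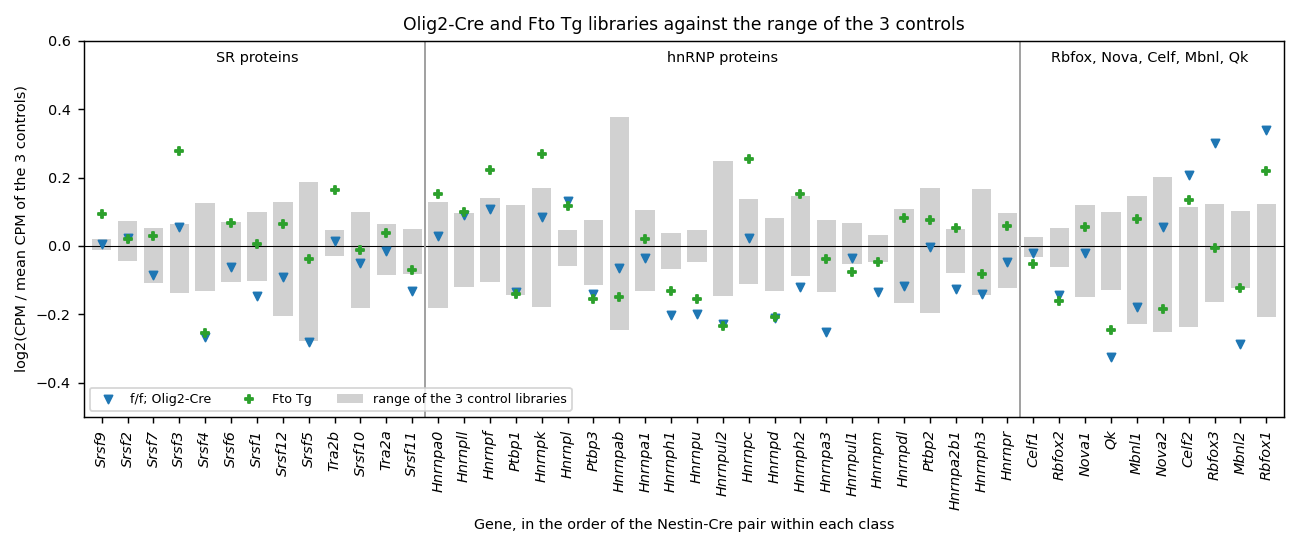
Log2 of CPM over the mean CPM of the 3 controls for each member in the Olig2-Cre (triangles) and Fto Tg (crosses) libraries, with the range of the 3 control libraries (grey bars). The plot places 26 members of the Olig2-Cre library and 21 of Fto Tg inside the control range, and Qk below it in both.

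The same read test between controls gave the calls seen without a deletion or transgene. These control pairs cross experiments, and those with WT also differ in the floxed allele. The f/f controls of the Olig2-Cre and Nestin-Cre pairs differed in 9 members (13.1% of all genes called), WT and the latter in 11 (17.3%), and WT and the former in 3 (7.2%). In all, 16 members were called in at least 1 control pair and 30 in none. The counts of 3 and 1 in the Olig2-Cre and Fto pairs did not exceed those of the control pairs. However, the control counts include differences between experiments, whereas the Olig2-Cre and Fto pairs each lie within an experiment. The 3 members that varied most between controls were Hnrnpab, Srsf5 and Nova2, with SDs of log2 CPM of 0.35, 0.24 and 0.23. Srsf5 had 393, 284 and 358 CPM in the f/f (Nestin-Cre), f/f (Olig2-Cre) and WT controls, and 523, 284 and 336 CPM in the Nestin-Cre, Olig2-Cre and Fto Tg libraries. Srsf5 was thus equally low in both libraries of the Olig2-Cre pair.

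The only contrast with more than 1 library in each arm set both Cre libraries against both f/f libraries. The Cre arm joins different drivers from different experiments, so its libraries are not replicates of 1 condition. The SE therefore includes the difference between the deletions, and the test does not measure variation within a genotype. No member passed an FDR of 0.05 by the edgeR quasi-likelihood test (0 of 16921 genes, 0%), and none had an unadjusted p under 0.05, which 143 genes had. The largest mean differences were those of Hnrnpr (log2 2.002 ± 0.933 SE, adjusted p = 0.955) and Srsf11 (1.69 ± 0.855, adjusted p = 0.955) by this edgeR test. DESeq2 called 3 genes and no member. Without the Olig2-Cre library, which set the Nestin-Cre library alone against both controls, 36 members were called, beside 47.8% of the 17747 genes tested. In both genes the Nestin-Cre library alone was high, and the biological coefficient of variation of the 4 libraries was 0.399.

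Other parts of the splicing machinery were read from lists of SR protein kinases, core snRNP and branch-site proteins, and further regulators. Of the 33 snRNP and branch-site genes, 23 were called lower and 4 higher in the Nestin-Cre pair, with a median of -0.67, close to that of all genes. The Sm proteins Snrpd2 and Snrpb, which form the ring on spliceosomal RNAs, had 51.3 and 50.8 CPM in f/f and 5.52 CPM each with Nestin-Cre. Their log2 ratios were -3.21 and -3.20, and Snrpe followed at -3.13. After the GC and length adjustment these were -2.20, -1.63 and -2.52. In the Olig2-Cre pair 3 of 33 were called higher and none lower, led by Snrpb at 0.39, Sf3a2 at 0.33 and Sf3b5 at 0.32. In the Fto pair 8 were called higher and none lower, led by Sf3b5 at 0.54 and Snrpb and Snrpd2 at 0.46 each, where 6.97% of all genes were called higher. After the adjustment 6 of 33 were called higher in the Fto pair and 1 in the Olig2-Cre pair, with Fto values of 0.56 for Sf3b5, 0.22 for Snrpb and 0.31 for Snrpd2. The exact test called none of the 33 in the Olig2-Cre and Fto pairs.

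Of the 7 kinases that phosphorylate SR proteins, 2 were called higher and 3 lower in the Nestin-Cre pair, beside 11.5% and 53.4% of all genes. Their median of -0.10 was 0.62 above the median gene. Srpk3 was at -1.65, Srpk1 at -0.72 and Clk1 at 0.50. After the GC and length adjustment these were -0.47, -0.43 and 0.58, and Clk3, called lower at -0.33, was at 0.94. In the Olig2-Cre pair Srpk3, Clk4 and Clk1 were called lower at -0.89, -0.43 and -0.39, and in the Fto pair none was called. Of 35 further regulators tested in the Nestin-Cre pair, 13 were called higher and 6 lower, with a median of 0.03. Rbm25, which acts with the U1 snRNP, had 179 CPM in f/f and 1294 CPM with Nestin-Cre, and 189 to 204 CPM in the other 4 libraries. Its log2 ratio of 2.86 exceeded that of every member, and Srrm1, a coactivator of the SR proteins, and Syncrip, a relative of Hnrnpr, followed at 1.47 and 1.37. In the Olig2-Cre pair 4 of 34 were called lower, led by Srrm2 at -0.36, Srrm1 at -0.30 and Sfpq at -0.29, and none was higher. In the Fto pair the paraspeckle protein gene Sfpq and Srrm2 were called lower at -0.36 and -0.34, and none was higher. The exact test called no kinase and no further regulator in the Olig2-Cre and Fto pairs.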

How the data were processed

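RNA-seq counts were analysed for 6 hippocampal libraries, grouped by their genotype labels. Per the submitters' processing notes and the study's methods, the authors trimmed the reads, aligned them to mm10 with TopHat2 (2.0.9 in the notes) and deposited whole-number counts per Ensembl gene from HTSeq 0.6 (union mode, unique reads, no strand). Reads shared with pseudogene copies, as for Hnrnpa1, or with overlapping genes were therefore lost, and sense and antisense reads were not separated. The methods describe paired-end reads, whereas the labels leave this open.

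Counts were scaled by library totals (CPM). The MARS test of DEGseq, used by the study, was reprogrammed in Python 3.11.15: 0.5 was added to each count, genes with 10 counts over the pair were tested, and calls required a Benjamini-Hochberg FDR below 0.001 and a fold of 1.2. It compares 2 libraries. The exact and quasi-likelihood tests came from edgeR 4.0.16, and DESeq2 1.42.0 was an alternative. Scripts were tested on simulated data. Symbols, coordinates, exon lengths and GC content came from GENCODE M21 (GRCm38, the mm10 assembly), and all 46 members matched. The members and gene lists were chosen with earlier results of these data known. Members with values in every library were named by a rule: the 4 largest rises and falls per pair among called members, opposite calls in both Prrc2a pairs, the 3 most variable in controls, the extremes per kilobase, and the brain-enriched regulators. Total counts set the counting precision: 3 counts, taken as the floor, were 0.0845 to 0.161 CPM.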

Additional observations from a re-analysis of the deposited data

Results flagged for a closer look

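Mbnl2 was called in opposite directions in the Nestin-Cre and Olig2-Cre pairs, with a log2 ratio of 0.72 with Nestin-Cre and of -0.30 with Olig2-Cre, a difference of 1.02. With 1 library per group the difference was not tested. Relative to the median gene of each pair the ratios were 1.44 and -0.30, and after the GC and length adjustment they were 0.64 (called) and -0.04 (not called).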

How the results depend on the processing

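In the Nestin-Cre pair, 11 members in place of 17 were called lower under TMM, DESeq2 size factors, the GC and length adjustment and, chosen after seeing the data, centring on the median gene, and 14 in place of 23 were called higher by the exact test. In the Olig2-Cre pair, the 1 higher call became 0 with TMM and the exact test, 3 with the adjustment and 2 against the other control, and the 2 lower calls became 0, 0 and 7 with the adjustment, the exact test and the other f/f library. In the Fto pair, the 1 lower call became 0 with TMM, DESeq2 size factors and the exact test, and the adjustment gave 6 higher calls in place of 0. Signs turned for Hnrnpab in the Nestin-Cre pair (0.17 by TMM, 0.20 by DESeq2 size factors or centring, 0.32 adjusted, 0.083 with the other control) and in the Olig2-Cre pair (-0.44 with the other control), for Nova1 in the Nestin-Cre pair (0.22 by TMM, 0.25 by DESeq2 size factors or centring), for Srsf6 in the Nestin-Cre pair (0.32 by TMM, 0.35 by DESeq2 size factors or centring, all called higher), for Ptbp3 (0.14 by TMM, 0.17 by DESeq2 size factors or centring) and Hnrnpl (0.19 adjusted) in that pair, and for Qk in the Fto pair (0.043 adjusted). Among members not called at first, Hnrnph3 turned to -0.30 and called in the Olig2-Cre pair with the other control, and Mbnl1 to 0.31 and called in the Fto pair after the adjustment. The cause was not tested. In the contrast of both Cre with both f/f libraries, leaving out 1 library gave 0 to 36 member calls: 36 without the Olig2-Cre library (47.8% of all genes), where the Nestin-Cre library stood alone against both controls and was assumed to vary like them, and 0 without any other. With the experiment as a replicate block 0 members were called, as without it. This block tied each Cre library to the f/f control of its own experiment, and the main contrast had no such term. Count minimums of 100 and none changed no member count.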
